A study of Homo sapiens with 4 samples.

Results

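E2F transcription factors and their DP dimerisation partners were followed in MDA-MB-231, a human breast cancer cell line of the triple-negative type, after exposure to YW-LF. The family was taken by gene symbol as 8 E2F genes (E2F1 to E2F8) and 2 DP genes (TFDP1 and TFDP2), and all 10 were found among the 20263 genes of the deposited table. Cells in DMEM with fetal bovine serum and antibiotics received YW-LF for 24 h (n = 2 libraries) or served as the DMSO controls (n = 2), and mRNA libraries were sequenced. The title of the study describes YW-LF as derived from ribociclib, a CDK4/6 inhibitor, and its dose is not stated in the labels. No label says that the libraries of a group came from separate cultures, so the spread between them may be technical. All groups are 1 cell line, and the bulk libraries cannot tell fewer cells expressing a gene from less of its RNA per cell.

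E2F proteins bind DNA as heterodimers with a DP protein and turn the genes of S phase entry on or off. E2F1, E2F2 and E2F3 are activators that the retinoblastoma protein holds inactive until cyclin D with CDK4 or CDK6, and then cyclin E with CDK2, phosphorylate it. E2F4 and E2F5 work mainly as repressors with the pocket proteins p107 and p130 in resting cells. E2F6 represses without pocket proteins, as part of a Polycomb complex, and E2F7 and E2F8 are atypical repressors that bind DNA without a DP partner. E2F1, E2F2, E2F7 and E2F8 are themselves textbook E2F target genes, and E2F7 is also known as a p53-induced gene.

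The upstream sequences of E2F1, E2F2, E2F3 and TFDP1, which hold an 8-letter E2F word, and of E2F7, which does not, are shown because several E2F genes are known to be controlled in part through E2F sites in their own promoters. They come from RefSeq on GRCh38.p14, 5′ to 3′ on the strand of the gene, and end at the last base before the annotated start (TFDP1 ends 51 bases before it). Capitals mark the E2F-type words searched on both strands, TTTCCCGC, TTTCGCGC, TTTGCCGC and TTTGGCGC, and their last 7 letters where the full 8 do not match.
E2F1, chr20:33686386-33686535, minus strand: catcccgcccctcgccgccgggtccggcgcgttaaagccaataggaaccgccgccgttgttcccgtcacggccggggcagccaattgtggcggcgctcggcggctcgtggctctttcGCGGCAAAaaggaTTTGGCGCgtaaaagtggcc
E2F2, chr1:23531234-23531383, minus strand: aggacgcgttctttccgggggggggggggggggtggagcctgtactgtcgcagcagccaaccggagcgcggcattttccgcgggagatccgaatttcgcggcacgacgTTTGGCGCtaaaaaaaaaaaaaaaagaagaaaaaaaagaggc
E2F3, chr6:20401729-20401878, plus strand: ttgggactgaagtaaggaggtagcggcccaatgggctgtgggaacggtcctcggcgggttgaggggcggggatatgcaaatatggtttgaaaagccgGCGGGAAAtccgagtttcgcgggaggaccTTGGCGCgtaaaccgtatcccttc
TFDP1, chr13:113584603-113584702, plus strand: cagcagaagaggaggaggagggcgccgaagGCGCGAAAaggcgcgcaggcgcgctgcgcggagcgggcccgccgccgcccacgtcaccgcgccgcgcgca
E2F7, chr12:77065570-77065719, minus strand: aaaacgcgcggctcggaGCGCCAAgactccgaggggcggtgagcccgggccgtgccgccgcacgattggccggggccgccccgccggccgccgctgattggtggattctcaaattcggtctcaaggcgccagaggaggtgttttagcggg
E2F1 carried a pair of 8-letter matches, GCGGCAAA starting 33 bases and TTTGGCGC starting 20 bases before its start. E2F2 held TTTGGCGC at 42 bases, E2F3 GCGGGAAA at 53 bases with a 7-letter TTGGCGC at 24 bases, and TFDP1 GCGCGAAA at 120 bases. E2F7 had no 8-letter match in its 300-base window (250 bases before to 50 after the start) and 7-letter matches at 176 and 133 bases. E2F4, E2F6 and TFDP2 had no 8-letter match in their windows; E2F6 held a 7-letter GCGGGAA starting 14 bases after the start. A second window of E2F3 had no match of either kind. An 8-letter match was present in 3.31% of 35116 promoter windows of this length and a 7-letter match, which every 8-letter match contains, in 13.0%. Windows were found for 8 of the 10 members; E2F5 and E2F8 were not among them. A match describes the letters only, and says nothing of binding in these cells.

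The libraries held 34774542 to 40218240 counts, so that 1 count is worth 0.0199 to 0.0324 CPM (counts relative to the total of the library) after scaling by trimmed mean of M-values (TMM); all CPM below are so scaled. YW-LF replicates differed from each other more than DMSO replicates, with a median absolute difference over 13816 genes of 0.74 against 0.27 on the log2 scale. Over the members these medians were 0.81 and 0.21. Mitochondrially encoded transcripts took 8.68% and 21.7% of counts in DMSO and 3.14% and 6.58% in YW-LF. With the 13 mitochondrial genes removed before scaling, E2F1 was at -1.62 in place of -1.63 (log2 fold change) and edgeR again called 0 members. All 7 genes chosen as present in MDA-MB-231 were detected (summed 7076 and 8449 CPM in the controls, 3954 and 6012 CPM after YW-LF). The 6 genes chosen as low or absent summed to 35.2 to 94.8 CPM, most of it ERBB2. The 10 markers of blood, vessel, stromal and liver cells summed to 3.85 to 11.9 CPM, with CD3E, CDH5 and DCN among those at 0 in all libraries. The highest on average was COL1A1, with 6.97 and 7.92 CPM in the controls and 6.55 and 0.49 CPM after YW-LF. Of the 6 that passed the count filter, 4 had both YW-LF libraries under the controls. Only ALB had both over them, with 0.053 and 0.18 CPM in the controls and 1.17 and 1.78 CPM after YW-LF.

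The family did not shift as a block. The activators E2F1 and E2F2 and the atypical repressor E2F8 were 3.09-fold, 7.59-fold and 5.92-fold lower in YW-LF, TFDP1 was 2.08-fold lower, and E2F7, the closest relative of E2F8, was 2.42-fold higher. All 10 members passed the filter on low counts. In 5 members both treated libraries had less than either control (E2F1, E2F2, E2F8, TFDP1 and TFDP2), as in 27.8% of all genes tested, and in 2 (E2F6 and E2F7) both had more, as in 28.0%. The other 3, E2F3, E2F4 and E2F5, overlapped. No member passed the Benjamini-Hochberg threshold in edgeR's quasi-likelihood test over all 13816 genes, which called 0.0% of genes in either direction. At an unadjusted p under 0.05 that test had 3 members lower (E2F1, E2F2 and E2F8; 9.01% of all genes) and 1 higher (E2F7; 11.5%), and DESeq2 called the same 3 lower (4.26% of its genes) and 0 higher (5.78%). With the replicate number as a block, edgeR called 2 members lower, E2F2 (adjusted p = 0.036) and E2F8 (adjusted p = 0.025), among 1.05% of genes, and 0 higher (1.35% of genes). No label ties these numbers to a batch, and same-numbered libraries did not deviate together (r = 0.037 across genes), so the block is only an alternative.

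**Figure D1:**
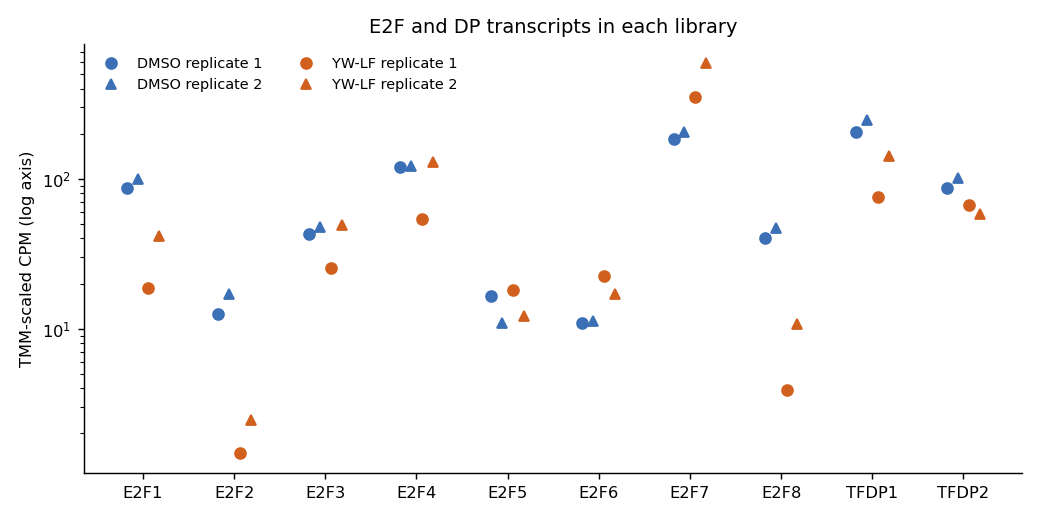
TMM-scaled CPM (log axis) of the 10 members in each of the 4 libraries, DMSO in blue and YW-LF in orange. E2F1, E2F2, E2F8, TFDP1 and TFDP2 have both YW-LF points under both DMSO points, and E2F6 and E2F7 have them above.

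Among the activators, E2F1 (ENSG00000101412, chromosome 20, 33675683 to 33686404 in GRCh38), the member best known for both S phase entry and apoptosis, had 86.8 and 99.997 CPM in the controls and 18.7 and 41.8 CPM after YW-LF. The groups did not overlap, and YW-LF replicate 1 was the lower. The log2 fold change was -1.63 (SE 0.47), with an adjusted p of 0.152 in edgeR and 0.029 in DESeq2. E2F2 (ENSG00000007968, chromosome 1, 23506430 to 23531220) had 12.6 and 17.2 CPM in the controls and 1.47 and 2.46 CPM after YW-LF, the latter from 74 and 76 counts. It was the member furthest from its control level, at -2.92 (SE 0.54), 7.59-fold lower (adjusted p = 0.121 in edgeR, 3.9e-05 in DESeq2). E2F3 (ENSG00000112242, chromosome 6, 20401906 to 20493715), the third activator, whose promoter above also holds an 8-letter match, had 42.6 and 47.5 CPM in the controls and 25.6 and 49.2 CPM after YW-LF. Its YW-LF replicate 1 lay below and its YW-LF replicate 2 above both controls, and the log2 fold change was -0.27 (SE 0.43, edgeR adjusted p = 0.749). The activators were not alike: the count ratio of E2F1 to E2F3 within a library, which no scaling can alter, was 2.04 and 2.10 in DMSO and 0.73 and 0.85 in YW-LF. The ratio of E2F1 to E2F2 was 6.87 and 5.83 in DMSO and 12.7 and 17.0 in YW-LF.

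The atypical repressors went in opposite directions. E2F7 (ENSG00000165891, chromosome 12, 77021247 to 77065580) had 184.5 and 205.5 CPM in the controls and 353.9 and 588.3 CPM after YW-LF. Every YW-LF value was above every DMSO value, and the log2 fold change was 1.27 (SE 0.45), with an adjusted p of 0.198 in edgeR and 0.068 in DESeq2. E2F8 (ENSG00000129173, chromosome 11, 19224063 to 19241620), which acts with E2F7 to restrain E2F1, had 40.2 and 46.7 CPM in the controls and 3.92 and 10.8 CPM after YW-LF. It was 5.92-fold lower, at -2.57 (SE 0.56), with an adjusted p of 0.121 in edgeR and 4.7e-04 in DESeq2. There were 4.58 and 4.396 counts of E2F7 for each count of E2F8 in the DMSO libraries, and 90.3 and 54.4 in the YW-LF libraries. For each count of E2F1 there were 2.13 and 2.05 of E2F7 in DMSO and 18.9 and 14.1 in YW-LF. With 2 libraries against 2, an exact two-sided permutation test of any such single ratio cannot reach 0.05, and no p is given for them.

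**Figure D2:**
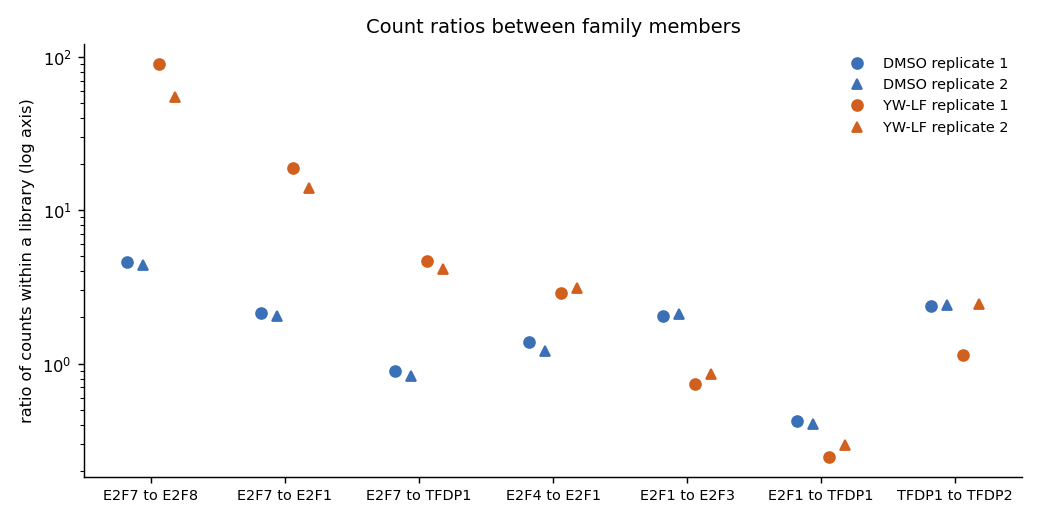
Ratios of raw counts between pairs of members inside each library (log axis), DMSO in blue and YW-LF in orange. The ratio of E2F7 to E2F8 goes from 4.396 and 4.58 in DMSO to 54.4 and 90.3 in YW-LF, while that of TFDP1 to TFDP2 overlaps between the groups.

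Among the repressors that use pocket proteins, E2F4 (ENSG00000205250, chromosome 16, 67192169 to 67198918), the main E2F of resting cells, had 120.1 and 121.6 CPM in the controls and 53.8 and 129.7 CPM after YW-LF. The controls nearly coincided, while the YW-LF libraries lay on either side of them (log2 fold change -0.40, SE 0.49, edgeR adjusted p = 0.672). E2F5 (ENSG00000133740, chromosome 8, 85177225 to 85217158) was a low transcript with 16.5 and 10.9 CPM in the controls and 18.2 and 12.1 CPM after YW-LF. Its replicates differed by 0.59 in DMSO and 0.58 in YW-LF on the log2 scale, more than its groups (0.15, SE 0.45, edgeR adjusted p = 0.874). Of its exon bases, 18.6% overlap genes on the opposite strand, whose reads may not be separable. E2F6 (ENSG00000169016, chromosome 2, 11444375 to 11466177), the Polycomb-linked repressor, rested on 374 to 1138 counts, with 10.9 and 11.2 CPM in the controls and 22.6 and 17.0 CPM after YW-LF. Both YW-LF libraries were above both controls, with a log2 fold change of 0.85 and an SE of 0.40 (adjusted p = 0.282 in edgeR and 0.306 in DESeq2). The values of E2F3, E2F4 and E2F6 are uncertain to the extent that reads are shared with their pseudogenes, of which GENCODE 29 lists 2, 1 and 4.

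The DP genes were both below DMSO. TFDP1 (ENSG00000198176, chromosome 13, 113584721 to 113641470), which encodes the main dimer partner of E2F1 to E2F6, had 205.8 and 246.0 CPM in the controls and 76.1 and 141.0 CPM after YW-LF. Its log2 fold change was -1.06 with an SE of 0.44 (adjusted p = 0.245 in edgeR and 0.176 in DESeq2). TFDP2 (ENSG00000114126, chromosome 3, 141944428 to 142149544) had 87.0 and 101.4 CPM in the controls and 66.7 and 58.0 CPM after YW-LF, a smaller distance from the controls (-0.60, SE 0.35, edgeR adjusted p = 0.365). E2F1 was further from its control level than its partner in both YW-LF libraries: there were 0.42 and 0.41 counts of E2F1 per count of TFDP1 in DMSO and 0.25 and 0.30 in YW-LF. The ratio of TFDP1 to TFDP2 overlapped, at 2.37 and 2.43 in DMSO and 1.14 and 2.43 in YW-LF.

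**Figure D3:**
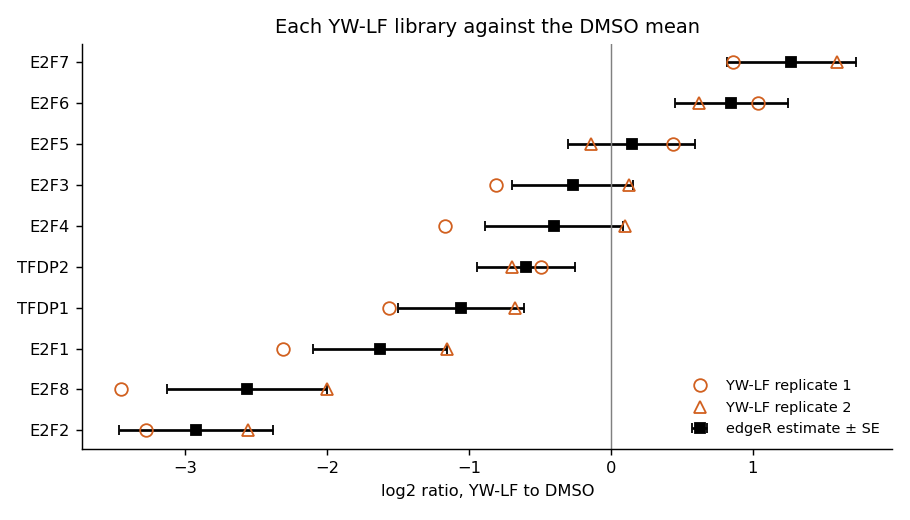
Log2 ratio of YW-LF to DMSO for each member: open symbols are the 2 YW-LF libraries against the mean of the DMSO libraries, squares the edgeR estimate with its SE. Members are ordered by the estimate, from E2F2 at -2.92 to E2F7 at 1.27, and for E2F3, E2F4 and E2F5 the 2 libraries lie on opposite sides of 0.

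The YW-LF libraries did not lie equally far from the controls. Against the DMSO mean, YW-LF replicate 1 was at -2.31 for E2F1, -3.45 for E2F8, -1.17 for E2F4 and -1.56 for TFDP1 on the log2 scale, and YW-LF replicate 2 at -1.15, -2.00, 0.10 and -0.67. E2F7 was the reverse, with 0.86 in the first and 1.595 in the second of them. TMM scaling factors of 1.25 and 0.84 separate these libraries, so part of the distance depends on the scaling. With library size as the only scaling, E2F7 stood at 442.4 and 492.9 CPM and E2F1 at 23.4 and 35.04 CPM in YW-LF, and the same 7 members kept non-overlapping groups, joined by E2F3 below DMSO. With upper quartile scaling it was E2F4 that joined them.

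Compared per length, as CPM per kilobase of exon, the order of the transcripts in DMSO was TFDP1 (60.4 ± 7.58, mean ± SD, n = 2), E2F1 (37.3 ± 3.72), E2F4 (33.7 ± 0.30), E2F7 (30.9 ± 2.35), E2F8 (10.5 ± 1.11), E2F3 (8.72 ± 0.68), TFDP2 (7.92 ± 0.85), E2F2 (2.73 ± 0.59), E2F6 (2.71 ± 0.054) and E2F5 (2.31 ± 0.66). The ranges of neighbours overlapped for E2F3 with TFDP2, E2F2 with E2F6, and E2F6 with E2F5. In YW-LF the per-length order began with E2F7 (74.7 ± 26.3), whose lower library was above both values of TFDP1 (29.02 ± 12.3), next in order. TFDP1, E2F4 (25.6 ± 15.0), E2F1 (12.1 ± 6.52), E2F3 (7.24 ± 3.23), and TFDP2 (5.24 ± 0.51) each overlapped with the next, down to E2F6 (4.88 ± 0.98). E2F6 was separate from E2F5 (2.56 ± 0.72), which overlapped with E2F8 (1.78 ± 1.18), and E2F2 (0.36 ± 0.13) came last. E2F7 took place 4 of the order in DMSO and 1 in YW-LF, and E2F8 places 5 and 9. The order of E2F1 and E2F4 in DMSO depends on the length used. With the longest transcript as length, E2F4 held 31.2% of the summed per-length counts of E2F1 to E2F8 in DMSO and E2F1 25.2%.

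Within the summed per-length counts of E2F1 to E2F8, which need no scaling between libraries, E2F7 made up 23.8% and 24.2% in DMSO and 60.1% and 56.5% in YW-LF. E2F1 made up 28.1% and 29.7% in DMSO and 8.01% and 10.1% in YW-LF. The activators E2F1 to E2F3 together held 37.8% ± 1.48 in DMSO and 14.9% ± 1.81 in YW-LF (SD, n = 2). E2F4 to E2F6 held 30.1% ± 2.14 and 25.5% ± 0.29, and the atypical pair 32.1% ± 0.66 and 59.6% ± 2.10. Nearly all of the last share in YW-LF was E2F7, since E2F8 held 1.01% and 1.58% there against 7.89% and 8.38% in DMSO. The smaller shares differed between the YW-LF libraries, with E2F6 at 5.96% and 2.54% and E2F5 at 3.29% and 1.24%, as did that of E2F4 (16.1% and 21.9%).

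**Figure D4:**
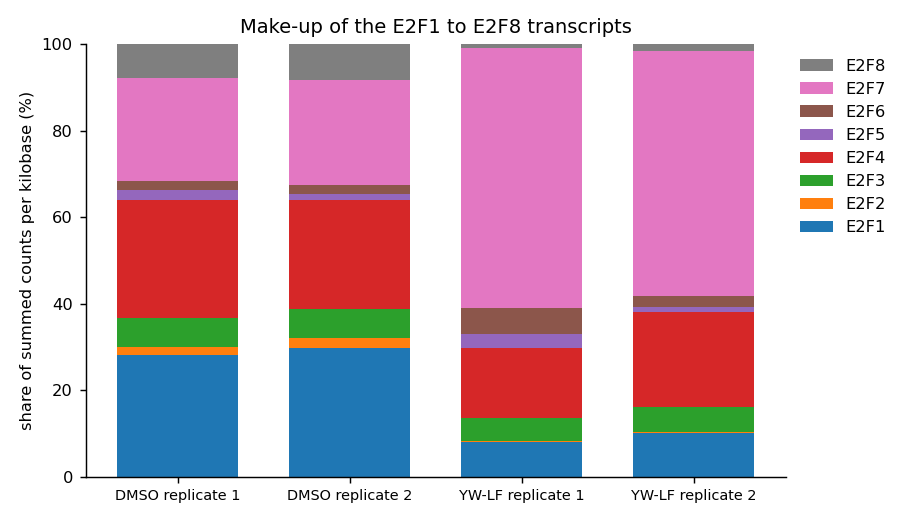
Share of each E2F gene in the summed counts per kilobase of exon of E2F1 to E2F8, 1 bar per library. E2F7 takes 23.8% and 24.2% of the DMSO bars and 60.1% and 56.5% of the YW-LF bars, and E2F1 shrinks from 28.1% and 29.7% to 8.01% and 10.1%.

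Upstream of the family, genes of the pocket proteins, of the cyclins and kinases that act on them, and of CDK inhibitors were listed together. This list was mixed in direction. Of 18 genes listed, 16 passed the count filter; 9 (56.2%) had both YW-LF libraries under the controls and 5 (31.2%) had both over them, beside 27.8% and 28.0% of all genes tested, with a median log2 fold change of -0.56 against 0.06 over all genes tested. The pocket protein genes were all among the 9: RBL1 (p107), itself an E2F target, had 94.0 and 96.5 CPM in the controls and 35.9 and 28.8 CPM after YW-LF, RBL2 (p130) 77.1 and 70.5 against 48.5 and 20.3 CPM, and RB1 89.4 and 84.9 against 64.4 and 44.6 CPM. CCND1 (cyclin D1) was at -1.46 (SE 0.45) and CDKN1A (the CDK inhibitor p21) at 2.42 (SE 0.46). CDK4 was at 1.02 (SE 0.48), and CDK6 overlapped between the groups at 0.18 (SE 0.51). The 5 over the controls were CDK4 and the CDK inhibitor genes CDKN1A, CDKN1B, CDKN1C and CDKN2D. DESeq2 called only CDKN1A of these, with adjusted p of 0.22 for CDK4, 0.39 for CDKN1B, 0.27 for CDKN1C and 0.22 for CDKN2D. The inhibitor gene CDKN2C was among the 9 (inhibitors other than CDKN1A were named after their values were seen). DESeq2 called 3 of the list lower and 1 higher (4.26% and 5.78% of all its genes). The lists here and below share genes and are not separate layers. RBL1, CCNE1 and CCNE2 are also among the proliferative targets, as is CCNA2 of the cofactors. RBL2 is also in the DREAM list, and RYBP and HDAC1 are in both the cofactor and Polycomb lists. The 3 called lower were CCND1 and the shared RBL1 and CCNE2. In edgeR 0 were called with adjustment, and 4 were lower and 2 higher at an unadjusted p under 0.05 (9.01% and 11.5% of all genes).

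Genes whose products bind or modify E2F proteins also went both ways. Of 18 cofactors, 9 (50%) were under the controls in each YW-LF library and 4 (22.2%) over them, beside 27.8% and 28.0% of all genes (median -0.39). Lowest in p were CCNA2 (cyclin A2, which with CDK2 ends E2F1 activity in S phase) at -1.94 (SE 0.39), CCNF (cyclin F, a ubiquitin ligase subunit that targets E2F proteins for degradation) at -1.45 (SE 0.35), and HCFC1 (a coactivator of E2F1) at -1.55 (SE 0.46). DESeq2 called 4 of these 18 lower and 0 higher, where over all genes it called 4.26% and 5.78%. For the Polycomb complex that contains E2F6, 4 of 14 genes lay under and 2 over the controls (median -0.13), shares of 28.6% and 14.3% against 27.8% and 28.0% over all genes tested. RYBP, a subunit of that complex, was at 1.09 (SE 0.35), and the histone methyltransferase genes EHMT1 and EHMT2 at -0.84 (SE 0.35) and -0.66 (SE 0.36). DESeq2 called 0 of the 14, and edgeR 0 with adjustment. At an unadjusted p under 0.05 edgeR had 1 of the 14 lower and 1 higher, beside 9.01% and 11.5% of all genes. Of 7 genes of the DREAM and MuvB core, through which E2F4 and p130 silence cell cycle genes, 4 lay below (57.1%) and 2 above (28.6%). The shares over all genes tested were 27.8% and 28.0%. DESeq2 called 0 of the 7, and edgeR 0 with adjustment. At an unadjusted p under 0.05 edgeR had 1 of them lower and 1 higher, beside 9.01% and 11.5% of all genes. RBBP4, a histone-binding subunit, was at -1.35 (SE 0.39), LIN54, the DNA-binding subunit, at -0.90 (SE 0.38), and LIN37, needed for repression, at 1.503 (SE 0.53).

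Downstream, the direction was nearly uniform among proliferative targets. Of 44 E2F target genes of S phase entry and DNA replication, 42 had less in each YW-LF library than in either control (95.5%, against 27.8% of all genes tested) and 0 had more, with a median log2 fold change of -1.40. The other 2, MCM7 and CDC45 of the replicative helicase (chosen after their values were seen), overlapped, with YW-LF replicate 2 above both controls: MCM7 had 229.3 and 236.8 CPM in the controls and 79.5 and 290.5 CPM after YW-LF. DESeq2 called 21 of the 44 lower and 0 higher, beside 4.26% and 5.78% of all its genes. In edgeR 0 were called with adjustment. At an unadjusted p under 0.05, 30 were lower and 0 higher, beside 9.01% and 11.5% of all genes. Lowest in p were CCNE2 (cyclin E2, -4.08, SE 0.43), CLSPN (claspin, a checkpoint adaptor at replication forks, -3.32, SE 0.39) and UHRF1 (which guides maintenance DNA methylation, -3.86, SE 0.48). Of the 39 targets with a RefSeq promoter window, 24 (61.5%) held an 8-letter E2F word, compared with 3.99% of 27305 genes in that table. The list was chosen as E2F targets from textbook knowledge, with results for these cells already known. Neither its direction nor its share of E2F words is therefore independent evidence.

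**Figure D5:**
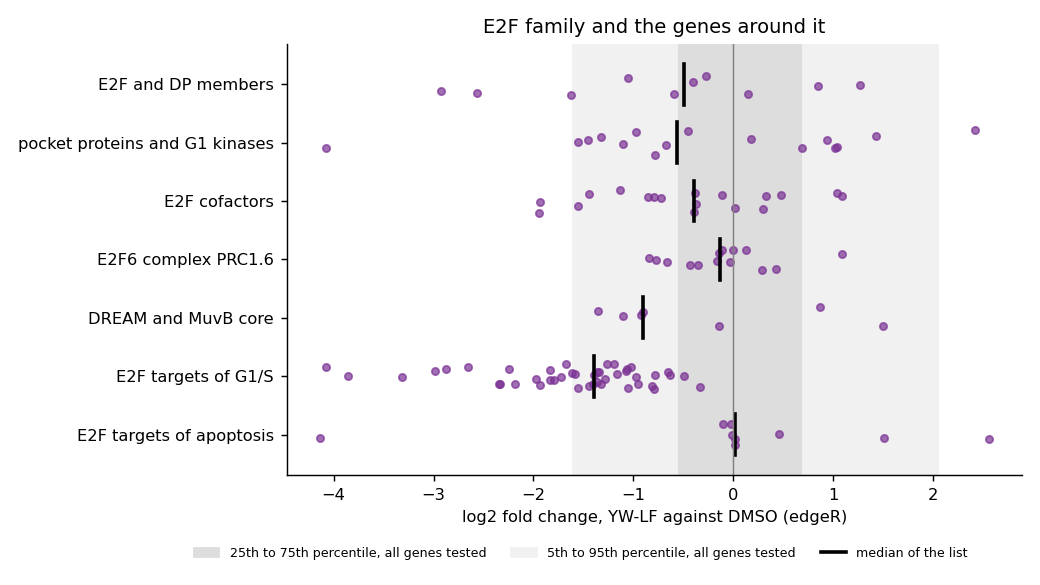
Log2 fold change of the family and of 6 lists of genes around it; each point is a gene, black bars are list medians, and grey bands give percentiles of all genes tested. The median of the proliferative targets is -1.40, while the family spans -2.92 to 1.27.

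E2F targets linked to apoptosis were mixed in direction, and their difference from the proliferative targets was not tested. Of 9 such genes, 1 (11.1%) was under the controls in each YW-LF library and 3 (33.3%) were over them, beside 27.8% and 28.0% of all genes, with a median of 0.02. TP73, a p53 relative that E2F1 induces, had 6.78 and 11.3 CPM in the controls and 0.78 and 0.23 CPM after YW-LF, the latter from 39 and 7 counts. PMAIP1 (the proapoptotic protein NOXA) had 50.4 and 59.7 CPM in the controls and 254.6 and 395.6 CPM after YW-LF. DESeq2 called TP73 lower (log2 fold change -4.14, adjusted p = 2.0e-06) and PMAIP1 higher (2.57, adjusted p = 1.1e-05). Over all its genes it called 4.26% lower and 5.78% higher. In edgeR neither was called, with an adjusted p of 0.121 for each. BBC3 (PUMA) reached 24.4 CPM in the first YW-LF library but 5.57 CPM in the second, beside 5.39 and 5.14 CPM in the controls. Of 9 germline genes that the E2F6 complex keeps silent, 6 were too low to test, and MAEL, STAG3 and SYCE2 stayed at or under 3.23 CPM in all libraries with adjusted p of 0.468 or more in edgeR. Among the 6, DDX4, a germ cell RNA helicase gene (chosen after its values were seen), had 0 counts in both DMSO libraries and 21 and 6 counts in YW-LF.

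Genes of most similar profile over the 4 libraries were found by the root mean square difference of log2 CPM, each gene centred on its mean, among 10799 genes with a mean of at least 5 CPM. RRM2, the ribonucleotide reductase subunit that supplies S phase with deoxynucleotides, was among the 3 nearest to both E2F2 (0.22) and E2F8 (0.082). Others were NEXN and GNA12 for E2F8 (0.032 and 0.14), SORBS2 and PCDHB2 for E2F2 (0.18 and 0.20), SLC4A11, EDN1 and DDAH1 for E2F1 (0.026, 0.069 and 0.074), ACTR3B, BUD13 and EZR for TFDP1 (0.045, 0.053 and 0.056), and CYSTM1 and IRGQ for E2F7 (0.043 and 0.044). With only 4 libraries, such closeness describes these profiles and no more.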

How the data were processed

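RNA sequencing counts of 4 libraries (2 DMSO, 2 YW-LF, 24 h) were grouped by their labels. The authors deposited whole-number counts, not normalized, judging from the values. Aligner, counter, annotation and strand setting were not given in the sources used here. Mouse builds (GRCm38, mm10) stand in the submitters' processing notes, but all 20263 identifiers are human and 0 are mouse. Symbols matched 20148 identifiers; the rest held 0.102% of counts. A second deposited table repeats the DMSO counts (40526 of 40526 values identical), and 2 columns that match no label were not used. Coordinates and exon lengths (the union of a gene's exons) are from GENCODE 29 on GRCh38, by identifier.

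Groups were compared with edgeR 4.0.16 under R 4.3.3 (filterByExpr, 13816 genes, TMM, quasi-likelihood F-test, no covariates, Benjamini-Hochberg threshold 0.05); SE is the log2 fold change divided by the square root of F. Log2 CPM used a prior count of 2. The procedure was also run on simulated counts with known changes, and the outcome is not reported here. Alternatives were DESeq2 1.42.0 (missing adjusted p stayed missing), other scalings and count filters, limma 3.58.1 voom, a replicate block, leaving out each library, removing 13 mitochondrial genes, and the longest transcript as length. Members and gene lists were chosen with earlier results of these data known. Named were all members, 7 fixed upstream genes, the 3 genes of lowest p in each other list, and the 3 nearest profiles to each of E2F1, E2F2, E2F7, E2F8 and TFDP1; some genes this rule or the marker lists hold are not reported here.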

Additional observations from a re-analysis of the deposited data

How the results depend on the processing

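Over all 13816 genes edgeR called 0 lower and 0 higher, a count that also held with DESeq2 size factors, upper quartile scaling, library size only, the stricter count filter, limma-voom without weights and without mitochondrial genes. DESeq2 called 616 lower and 835 higher, edgeR without a count filter 120 and 155, limma-voom with sample quality weights 56 and 175, and the replicate block 145 and 186. Leaving out 1 library gave 16 to 2919 lower and 46 to 2963 higher, the most without YW-LF replicate 1. Members called lower were 3 in DESeq2, 2 without a count filter, 1 with quality weights and 2 with the replicate block (E2F2, adjusted p = 0.036, and E2F8, 0.025), and 0 to 5 when 1 library was left out. Members called higher were 0 to 1 when 1 library was left out (E2F7 at 1.59, adjusted p = 0.0024, without YW-LF replicate 1, and E2F6 at 1.03, 0.034, without YW-LF replicate 2). In such fits the remaining pair alone sets the spread, and the lone library is assumed to vary like it.

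E2F1, E2F2, E2F6, E2F7, E2F8, TFDP1 and TFDP2 kept their direction in all 14 alternatives, with log2 fold changes of -2.33 to -1.16, -3.35 to -2.60, 0.62 to 1.03, 0.85 to 1.59, -3.48 to -2.01, -1.58 to -0.68 and -0.70 to -0.48. Without YW-LF replicate 1 the sign turned for E2F3 (0.12), E2F4 (0.10) and E2F5 (-0.18), and without DMSO replicate 2 for E2F5 (-0.13). When 1 library was left out, these members ranged from -0.83 to 0.12, -1.18 to 0.10 and -0.18 to 0.49. The cause was not tested. When 1 library was left out, non-overlapping members numbered 5 to 7 below and 2 to 4 above DMSO, and proliferative targets 42 to 44 below and 0 to 2 above, where 33.2% to 45.3% of all genes lay below and 33.9% to 44.3% above. The median of those targets ranged from -1.85 to -1.32. The E2F7 share of the family in YW-LF was 56.5% to 60.1% in single libraries and 55.9% with the longest transcript as length. In DMSO that length took E2F1 from 28.9% to 25.2% and E2F4 from 26.2% to 31.2%, which reversed their order. Other scalings moved the median log2 fold change of all genes from 0.06 to at most 0.16. Same-numbered libraries did not deviate together (r = 0.037 across genes), and no label ties the numbers to a batch, so the block is given only as an alternative.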
